A study of Rattus norvegicus with 92 samples.

Results

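The 119 rows of the expression tables that were raised in the nasal epithelium of rats after acrolein inhalation were followed through 7 other tissues of the same exposure study. The rows are the members described here, out of 20508 rows in each of 8 tissue tables. They were chosen by their nasal values: the lowest acrolein level lay above the highest air level, the acrolein mean was at least 2 CPM and at least 1.5 times the air mean, and no tissue of air rats exceeded the next highest tissue by 5 times or more. Of all 20508 rows, 185 (0.902%) had nasal groups that did not overlap upward, 130 of these also met the limits on mean and ratio, and the limit between tissues left out 11 more. CPM is the usual library-scaled count, a row's value divided by the total of its library and brought to a common total. The nasal rise of the members is therefore built into their choice and is described without a test.

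The rats were adult male Wistar-Kyoto animals, exposed nose-only for 4 h to air (0 ppm) or to acrolein, with a short stepwise rise before the final 3.16 ppm, and tissues were taken straight after exposure. Air and acrolein libraries numbered 5 and 6 in the nasal epithelium, 8 and 6 in lung, 5 and 6 in liver, 6 and 4 in adrenal, 6 and 4 in adipose tissue, and 6 and 6 each in muscle, hippocampus and hypothalamus, 92 in all. The 2 adipose air libraries that share the number 8 were closer to each other than any other air pair (Pearson r = 0.968 against at most 0.959 over 13658 rows) and were counted as 1 sample, which left 5 air samples there. Polyadenylated RNA was sequenced in bulk, to between 2513375 and 30194066 reads assigned to rows per library.

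Acrolein is a reactive, unsaturated aldehyde of smoke and combustion exhaust that binds thiols and other nucleophilic groups of proteins and glutathione. It is water soluble and is taken up largely where inhaled air first meets mucosa, so the nasal epithelium is the most directly exposed tissue of the series. Cells answer electrophiles of this kind with transcription of thiol-synthesis, detoxification, chaperone and inflammatory genes, and inhaled irritants also engage nerves and stress hormones that reach distant organs. The rows carry Ensembl identifiers that the files do not pair with gene symbols, and none of the 20508 matched a symbol in the annotation used here. The members are accordingly described as transcripts, without gene functions, sequences or pathway lists, and the labelled tissues were checked against one another rather than against named markers. Of the members, 114 have a transcript identifier and 5 a gene identifier.

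In the nasal epithelium, the members ran from a ratio of acrolein mean to air mean of 1.501 up to 64.9, with a median of 2.55. The ratio was under 2 for 32 members, from 2 to under 4 for 52, from 4 to under 10 for 24 and 10 or more for 11. The median member had a mean of 9.65 CPM in air and 26.4 CPM in acrolein noses. The acrolein noses did not respond evenly: replicate 10 was the highest acrolein library for 74 of 119 members, and replicate 11 was the lowest for 60. Taken as the median over members of the log2 ratio to the air mean, the acrolein libraries stood between 1.03 (replicate 11) and 1.88 (replicate 10), while the 5 air libraries ranged from -0.42 to 0.36. The air library with the highest median, replicate 4, was also the highest air library for 46 members, and it therefore set the bar that many rows had to clear. Without air replicate 4 the same rule chose 248 rows, and without acrolein replicate 11 it chose 226. Each time 117 of the 119 members were among them, and leaving out a library loosens the limit on overlap. With any 1 nasal library left out, 111 to 119 members were kept, a number that could fall only through the limits on mean, ratio and tissues.

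The thresholds cut through a continuous range. The members nearest the ratio limit had ratios of 1.501 and 1.516, and the nearest rows outside it had 1.498 and 1.489. On the level limit, members had nasal acrolein means of 2.18 and 2.26 CPM against 1.98 and 1.94 CPM just outside. The lowest acrolein library exceeded the highest air library by factors of only 1.002 and 1.004 in the closest members, and reached 0.999 and 0.992 of it in the closest rows outside. The highest tissue in air exceeded the second by 4.59 and 4.13 times in the members nearest the last limit and by 5.77 and 5.85 times in the nearest rows outside.

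ENSRNOT00000019192 had the largest ratio among members with an air mean of at least 0.5 CPM. Its 5 air noses read 13.7, 12.5, 20.3, 17.3 and 23.6 CPM, and its 6 acrolein noses ran from 367 CPM (replicate 11) through a median of 1156 to 1634 CPM (replicate 15). The weakest acrolein nose thus stood far above every air nose, and the spread among exposed noses was itself wide, with a mean of 1134 ± 512 CPM (SD, n = 6) against 17.5 ± 4.59 CPM (SD, n = 5) in air. ENSRNOT00000117518 was next, at 24.1 times, from a low base: 1.204 ± 0.749 CPM (SD, n = 5) in air and 29.1 ± 15.5 CPM (SD, n = 6) in acrolein noses, where the lowest library read 8.11 CPM and the highest 53.2 CPM.

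The members were widely transcribed in air rats. An air mean of at least 1 CPM was reached in all 8 tissues by 70 of the 119 members and in 7 tissues by 18 more, and 5 members reached it in none. By tissue, the number was highest in the nasal epithelium (106 members), and it was lowest in muscle (88) and liver (81). The highest air mean lay in the nasal epithelium for 14 members, in adipose tissue for 26, in lung for 24 and in adrenal for 21. It lay in hypothalamus for 16, in hippocampus for 10, in muscle for 6 and in liver for 2. Even levels between tissues were favoured by the rule, which capped the gap between the highest and second tissue. The same counts were not taken over all rows. The median member in air stood at 10.98 CPM in adipose tissue, 10.5 in lung, 9.65 in the nasal epithelium, 9.14 in adrenal, 6.48 in hypothalamus, 5.57 in hippocampus, 4.07 in liver and 4.00 in muscle. These levels are set across tables that were normalised separately, so their order is approximate.

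**Figure D1:**
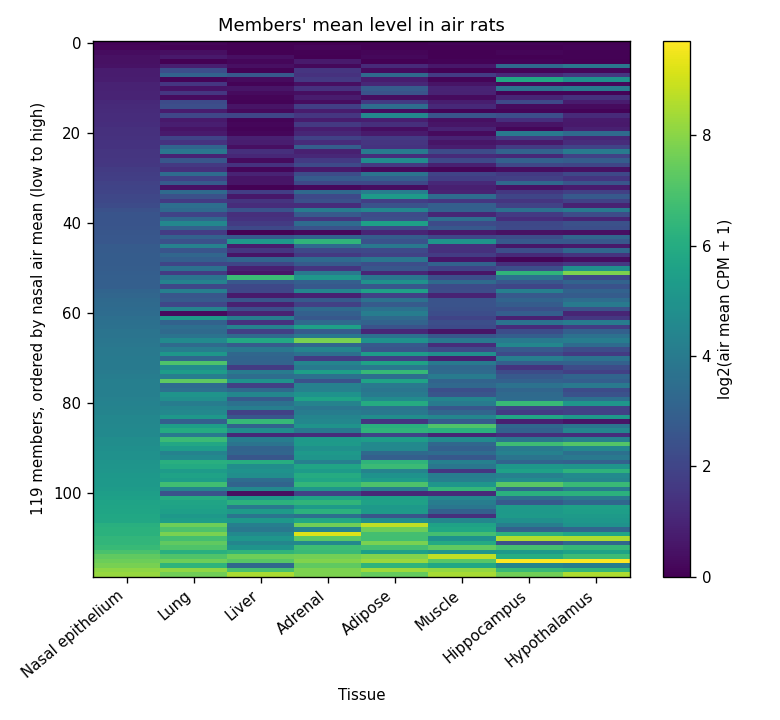
Mean level of each of the 119 members (rows, ordered by nasal air mean) in air rats of 8 tissues (columns), as log2(CPM + 1) on the colour scale. Most members carry signal in every column, and the liver and muscle columns hold the most dark cells, with 81 and 88 members at 1 CPM or more.

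The 2 members with the steepest nasal rise among those with an air mean of at least 0.5 CPM had different resting levels elsewhere. ENSRNOT00000019192 in air was highest in lung (31.9 ± 9.86 CPM, SD, n = 8) and adrenal (29.9 ± 11.96 CPM, SD, n = 6), neighbours whose ranges overlapped, then liver (21.5 ± 6.05 CPM, SD, n = 5) and the nasal epithelium, and it was lowest in hypothalamus (4.40 ± 1.46 CPM, SD, n = 6) and muscle (4.94 ± 4.56 CPM, SD, n = 6). In hippocampus its air libraries read 2.09 to 4.57 CPM except replicate 2, at 40.02 CPM. That library also carried rows restricted to muscle, the nasal epithelium and liver (in air rats at least 50 CPM in that tissue and over 20 times each other tissue). They stood at a median of 6.90%, 1.47% and 1.35% of their level in the air rats of the tissue they mark, where the next highest hippocampus had 1.39%, 0.232% and 0.0475%. ENSRNOT00000019192 itself had air means of 4.94 CPM in muscle, 17.5 CPM in the nasal epithelium and 21.5 CPM in liver, each below 40.02 CPM. The part of such rows in that value was not tested. ENSRNOT00000117518 in air was highest in adipose tissue (10.01 ± 3.94 CPM, SD, n = 5) and lung (4.01 ± 1.17 CPM, SD, n = 8), and below 0.5 CPM on average in liver, hippocampus and hypothalamus.

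Outside the nose, single members were called only by some tests and settings. With limma on log2(normalised count + 1), Benjamini-Hochberg adjustment over all rows tested in a tissue, and a call set at 0.1 or less for the adjusted p plus a change beyond 1.2-fold in either direction, no member was called in any of the 7 other tissues. In lung 1 of 20052 rows was called (0.00499%), in liver 69 of 18769 (0.368%), and in adrenal, adipose tissue, muscle, hippocampus and hypothalamus 0 rows (0%). The smallest adjusted p of a member was 0.12 in liver, 0.248 in lung, 0.649 in adrenal, 0.83 in hippocampus, 0.963 in hypothalamus, 0.998 in adipose tissue and 1.00 in muscle. On recovered reads in lung, edgeR called 1 member higher, where it called 0.0299% of all rows. DESeq2 called 2 higher there, 1.75% of members with an adjusted p against 0.569% of all such rows. In liver, edgeR called 1 member lower, where it called 1.53% of all rows. DESeq2 called 9 members lower and 1 higher in liver, 12.5% of members with an adjusted p against 13.5% of all such rows. Neither called a member in the other tissues, where DESeq2 called 18 rows in adrenal, 1 in adipose tissue, 6 in muscle, 0 in hippocampus and 1 in hypothalamus. With acrolein replicate 9 left out, limma called 1 member in lung, where it called 1 to 8 of all rows with any 1 lung left out. The tests took in 119 members in lung and hippocampus, 118 in hypothalamus, 117 in liver, adrenal and adipose tissue and 116 in muscle, the rest having a value above 0 in fewer than 2 samples there. The fits measure the spread between these libraries, and in bulk tissue a change in cell numbers cannot be told apart from a change in RNA per cell.

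Counted by direction alone, the members leaned one way or the other in most tissues. They leaned higher in acrolein rats in lung, hippocampus and hypothalamus, and lower in liver, adipose tissue and muscle. The median log2 fold change of the members (acrolein over air) was 0.17 in lung, 0.26 in hippocampus, 0.10 in hypothalamus and 0.06 in adrenal, and -0.24 in liver, -0.22 in adipose tissue and -0.21 in muscle. The median over all tested rows lay between -0.01 and 0.00 in each tissue. A higher acrolein mean was found for 76.5% of members in lung and in hippocampus, 69.5% in hypothalamus, 55.6% in adrenal, 33.3% in adipose tissue, 31.9% in muscle and 30.8% in liver, where all tested rows gave 48.3% to 50.3%. In adrenal the direction followed the scaling: with each library rescaled to the same total, the median of the members was -0.10 and that of all rows -0.15. The adrenal libraries also differed in adipose-restricted rows, whose median stood above 2.5% of the air adipose level in 4 of 6 air adrenals and at 0.243% to 2.48% in the acrolein adrenals. The part of these rows in the adrenal median was not tested. In adipose tissue the median depended on single samples, at -0.10 without air replicate 7 and -0.07 with the 2 libraries numbered 8 taken as separate samples.

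**Figure D2:**
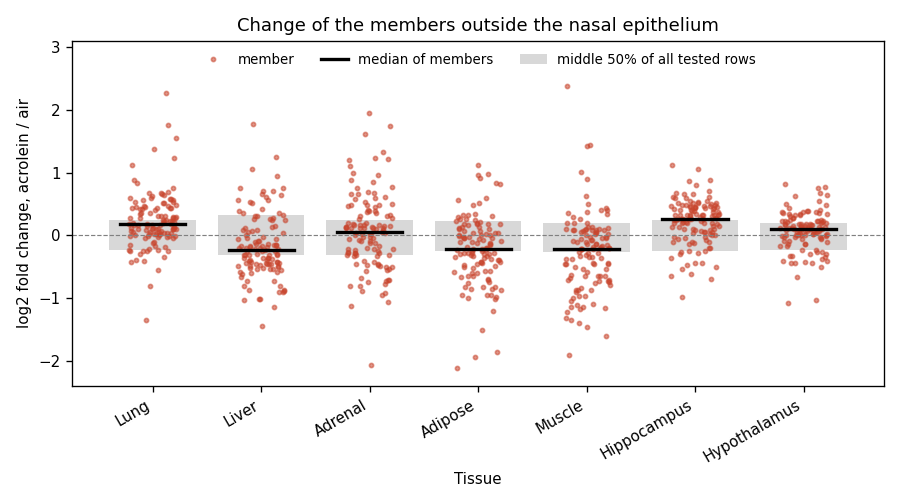
Log2 fold change (acrolein over air, vertical axis) of each tested member (points) in the 7 other tissues, with the median of the members (black bar) and the middle 50% of all tested rows (grey band). The bars sit above 0 in lung, hippocampus and hypothalamus, below 0 in liver, adipose tissue and muscle, and inside the grey band in each tissue except hippocampus, where the median of 0.26 is just above its upper edge.

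Single members spread widely around these medians. The lowest and highest log2 fold changes of a member were -1.35 and 2.27 in lung, -1.44 and 1.77 in liver, -2.07 and 1.95 in adrenal, -2.12 and 1.11 in adipose tissue, -1.90 and 2.38 in muscle, -0.98 and 1.12 in hippocampus, and -1.08 and 0.82 in hypothalamus. Of 113 members tested in all 7 tissues, 13 (11.5%) were higher on average in acrolein rats in 6 or 7 tissues, against 6.86% of all such rows. The share higher in at most 2 tissues was 18.6% for the members and 24.8% for all rows, and 58 members (51.3%, against 53.3% of all rows) were higher in 3 or 4.

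The share of members at an unadjusted limma p under 0.05 was set beside that of all rows, with higher and lower rows counted apart. In adrenal and hypothalamus the shares of members stayed near those of all rows. In lung, 20 of 119 members (16.8%) were higher at that level and 0 lower, where 4.38% of all tested rows were higher and 3.29% lower. In liver the balance was opposite, with 20 of 117 members (17.1%) lower and 5 (4.27%) higher, against 8.88% and 10.3% of all rows. Adipose tissue had 10 lower (8.55%) and 4 higher (3.42%), against 1.5% and 1.21% of all rows, and muscle 10 lower (8.62%) and 4 higher (3.45%), against 1.95% and 1.04%. Adrenal had 5 higher (4.27%) and 7 lower (5.98%), against 3.32% and 4.22% of all rows. Hippocampus had 5 of 119 higher and 1 lower, against 2.15% and 2.16%, and hypothalamus 2 higher (1.69%) and 0 lower, against 0.97% and 1.72%. Members do not vary independently of one another, as described below, so these shares are descriptions and not tests.

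The members also moved together from library to library within an exposure group. With group means removed, the mean pairwise correlation among members with at least 2 CPM was 0.40 in the nasal epithelium (112 members, 11 libraries), 0.23 in lung (99 members, 14 libraries), 0.18 in hypothalamus, 0.17 in hippocampus and adipose tissue, 0.13 in muscle, 0.11 in adrenal and 0.08 in liver. The same measure over all rows was at most 0.0057 in any tissue. That is a low baseline, since size-factor scaling holds the middle of all rows near 0 in each library. The measure was not taken for rows raised in the nose that the rule did not choose. The nasal figure describes the data used for the choice of members. The libraries, which the points share, number 9 to 14 per tissue.

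A few libraries accordingly carried much of the lean. In lung, the median over members of the log2 ratio to the air mean was 0.78, 0.47 and 0.51 in acrolein replicates 13, 14 and 15, and -0.08, -0.19 and -0.23 in replicates 9, 10 and 12. The 8 air lungs ranged from -0.35 to 0.17, so 3 acrolein lungs lay above all air lungs and 3 within their range. In hypothalamus, acrolein replicate 11 alone stood at 0.75, with the other acrolein libraries between -0.18 and 0.18 and the air libraries between -0.14 and 0.14. Without that library the members' median log2 fold change in hypothalamus was -0.03. In hippocampus, acrolein replicates 10 and 14 stood at 0.54 and 0.57 and air replicate 8 at -0.50, and the remaining libraries lay between -0.09 and 0.20. Air replicate 2 of hippocampus, which carried rows of other tissues, stood at 0.06, and without it the median log2 fold change of the members was 0.29.

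Lung acrolein replicate 13 held the highest value of the tissue for 52 of 119 members (43.7%, against 18.9% of all rows), hippocampus acrolein replicate 14 for 52 of 119 (43.7% against 18.2%), and hypothalamus acrolein replicate 11 for 61 of 118 (51.7% against 29.3%). The 6 acrolein livers were at -0.45 to -0.09 and the 5 air livers at -0.12 to 0.09, with 2 acrolein livers inside the air range and 4 below it. Rows restricted to adrenal separated the same groups, with a median over 25 rows of 0.00781% to 0.0143% of the air adrenal level in air livers and 0.0560% to 0.267% in acrolein livers. Their part in the lean of the members was not tested. The acrolein muscles ranged from -0.57 to 0.17 and the air muscles from -0.56 to 0.33, and in adipose tissue the ranges were -0.48 to 0.10 and -0.60 to 0.33, so the groups overlapped in both. Air muscle replicate 5, at 0.33, held the highest value for 47 of 116 members (40.5% against 30.4% of all rows), and it carried adipose-restricted rows at a median of 2.52% of the air adipose level, against at most 0.352% in the other muscles. Without it the median log2 fold change of the members in muscle was -0.18. Air muscle replicate 8 held the highest value for 30 of 116 members (25.9% against 20.2% of all rows). Air replicates 5 and 8 had the lowest totals of normalised counts of the muscles, 15822700 and 16058200, with the next at 19602000.

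**Figure D3:**
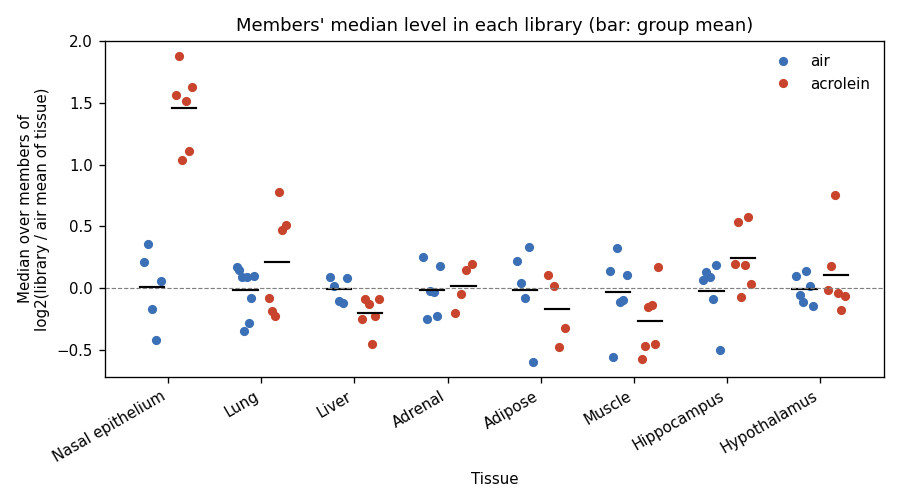
Median over the members of the log2 ratio of each library to the air mean of its tissue (vertical axis), for air (blue) and acrolein (red) libraries of 8 tissues, with group means as bars. The nasal groups are apart by the choice of members, lung acrolein libraries divide into 3 at 0.47 or more and 3 below 0, and 1 hypothalamus library stands at 0.75.

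The lean of the members was shared by rows that the rule did not choose. Beyond the members, 1215 rows had a nasal acrolein mean of at least 2 CPM and at least 1.5 times the air mean, without meeting every other limit, and 1239 rows were lower by the same factor in acrolein noses. The following medians are over rows with at least 2 CPM both in the nose and in the tissue. In lung the median log2 fold change was 0.17 for 97 members, 0.20 for 778 other raised rows, -0.03 for rows that moved less in the nose, and -0.31 for 955 lowered rows. In liver the order was inverted, with -0.25 for 70 members, -0.37 for 586 other raised rows and 0.48 for 708 lowered rows.

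Adipose tissue resembled liver, with -0.19 for members, -0.26 for other raised rows and 0.22 for lowered rows. Hippocampus resembled lung, with 0.26 for members, 0.28 for other raised rows and -0.23 for lowered rows. Hypothalamus gave 0.10, 0.08 and -0.18 in the same order. In adrenal the values were 0.11, 0.04 and -0.01, and in muscle -0.19, -0.11 and -0.04. In lung, liver, adipose tissue and hippocampus the other raised rows thus had medians at least as far from 0 as those of the members, and the rows lowered in the nose had medians of the opposite sign.

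**Figure D4:**
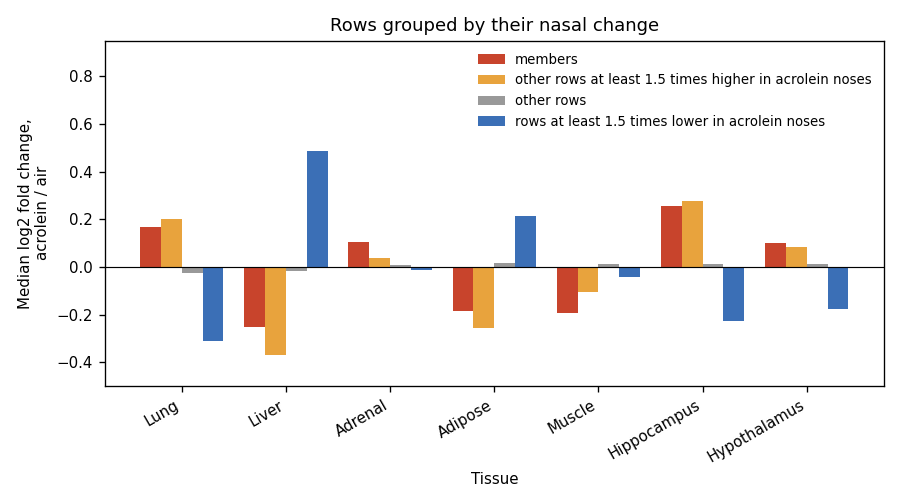
Median log2 fold change (acrolein over air, vertical axis) in 7 tissues for the members (red), other rows at least 1.5 times higher in acrolein noses (orange), rows that moved less (grey) and rows at least 1.5 times lower (blue), all with at least 2 CPM in both tissues. In lung the 4 bars read 0.17, 0.20, -0.03 and -0.31, and in liver the red and orange bars are below 0 and the blue bar is at 0.48.

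Over all rows with at least 2 CPM in both tissues, the nasal log2 fold change correlated with that in lung (Pearson r = 0.40, n = 12894 rows), hippocampus (0.34, n = 12627), hypothalamus (0.18, n = 12816) and adrenal (0.11, n = 12131), and inversely with that in liver (-0.41, n = 10684), adipose tissue (-0.31, n = 12150) and muscle (-0.09, n = 10522). These are correlations across rows, which are not independent, and the 2 comparisons of each pair share no library. The labels carry the same sample numbers in several tissues without stating whether these are the same rats, so libraries of 2 tissues may come from the same animals. With 1 library of the second tissue left out, r in hypothalamus ran from -0.12 (without acrolein replicate 11) to 0.30, in lung from 0.23 (without acrolein replicate 13) to 0.46, and in liver from -0.44 to -0.35. It ran from 0.23 to 0.43 in hippocampus, 0.06 to 0.26 in adrenal and -0.45 to -0.19 in adipose tissue, and in muscle from -0.18 to 0.02, where the sign turned without acrolein replicate 14. Among the members alone, r with the nasal change was 0.30 in lung (n = 97), 0.02 in liver (n = 70) and -0.23 in hippocampus (n = 87).

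Some of the libraries in which the members were high resembled one another over the whole table. Libraries outside the nose with 78% or more of members above the air mean were lung acrolein replicates 13, 14 and 15, hippocampus acrolein replicates 10 and 14 and hypothalamus acrolein replicate 11, a selection made after the values were seen. Their log2 deviations from the air mean, set against each other across tissues in 11 pairs, correlated with a median r of 0.46 over all rows with at least 2 CPM (range 0.03 to 0.79) and 0.21 over 83 to 85 members (range -0.05 to 0.58). The closest pair, lung acrolein replicate 13 and hypothalamus acrolein replicate 11, had r = 0.79 over 12170 rows and 0.49 over 85 members, and lung acrolein replicate 14 with hippocampus acrolein replicate 10 had r = 0.03 over the table. The other 97 pairs of acrolein libraries between these 3 tissues had a median r of -0.02 over rows and spanned -0.50 to 0.79, so values as high also occurred outside the selection. Lung acrolein replicates 14 and 15 have labels with a capital first letter, unlike the other lungs. The labels of hippocampus acrolein replicate 10 and hypothalamus acrolein replicate 11 carry an added R. So do hippocampus air replicate 4 and acrolein replicate 11, which were not among the libraries selected. In the nasal epithelium the R is on air replicates 4, 5 and 6 and acrolein replicates 9, 10 and 11. In muscle it is on air replicates 2, 5 and 8 and acrolein replicate 15. Lung acrolein replicate 13 and hippocampus acrolein replicate 14 carry neither mark. What the marks mean is not stated. Lung acrolein replicates 13 and 15 had the lowest totals of normalised counts of their tissue, 11544900 and 12073100, with the next at 13269400. Hippocampus acrolein replicate 14 (15082300, next 16736700) and hypothalamus acrolein replicate 11 (13526200, next 15021900) were also the lowest of theirs. Lung acrolein replicate 14 and hippocampus acrolein replicate 10 were not. The part of the marked labels, of these totals and of the table-wide deviation in the lean of the members was not tested.

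In lung, the median change of the members rose with their nasal ratio. The 35 members with a nasal ratio of 4 or more had a median log2 fold change of 0.31 in lung, against 0.16 for the 52 members with ratios from 2 to under 4 and 0.10 for the 32 below 2. The number of members higher did not follow that order, at 29 of 35, 36 of 52 and 26 of 32. Of the 20 members higher in lung at an unadjusted p under 0.05, 9 had a nasal ratio of 4 or more, 10 a ratio from 2 to under 4 and 1 a ratio below 2. These 20 had log2 fold changes from 0.43 to 2.27 with a median of 0.69. Each acrolein lung had at least 16 of the 20 above the air mean, while the air lungs ranged from 2 (replicate 4) to 17 (replicate 1). In contrast with the whole set of members, the 20 were thus high in acrolein replicates 9, 10 and 12 as well, though they were picked on these same libraries. From the lowest to the highest nasal ratios, the medians also rose in liver (-0.27, -0.25 and -0.09, with 7 of 32, 14 of 52 and 15 of 33 members higher) and in adrenal (-0.05, 0.05 and 0.17, with 15 of 32, 30 of 52 and 20 of 33). In hippocampus they fell, at 0.33, 0.31 and 0.19. In adipose tissue (-0.22, -0.15 and -0.30), muscle (-0.27, -0.14 and -0.36) and hypothalamus (0.10, 0.11 and 0.09) they had no such order.

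ENSRNOT00000019192 had the smallest limma p-value of the members in lung. Its 8 air lungs ran from 22.7 CPM through a median of 28.1 to 48.3 CPM, and its 6 acrolein lungs from 33.2 CPM (replicate 9) through a median of 95.3 to 135 CPM (replicate 15). Acrolein replicate 9 lay within the air range and the other 5 acrolein lungs lay above it, so the groups overlapped. The log2 fold change was 1.37 ± 0.26 (SE), with a limma adjusted p of 0.248. With edgeR's quasi-likelihood test on the recovered reads the adjusted p was 0.0949 and the transcript was called, 1 of 6 rows (0.0299%) called in lung. DESeq2 on the same reads called it and 1 further member, among 94 of 16525 rows with an adjusted p (0.569%), and limma called it once acrolein replicate 9 was left out.

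The second member called by DESeq2 in lung was ENSRNOT00000074586, which had risen 6.31 times in the nose. Its air lungs ran from 3.14 CPM through a median of 7.98 to 26.5 CPM (replicate 6), and its acrolein lungs from 13.2 CPM through a median of 22.6 to 58.1 CPM (replicate 13). Air replicates 1 and 6 reached into the acrolein range and the other 6 air lungs lay below it. The limma log2 fold change was 1.54 ± 0.41 (SE), with an adjusted p of 0.482. No member had lung groups without overlap, where 0.0898% of all tested rows did, in either direction.

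In the other 6 tissues ENSRNOT00000019192 was not called and its fold changes had either sign. The limma log2 fold change was -0.44 ± 0.20 (SE) in liver, -0.50 ± 0.25 in adrenal, 0.18 ± 0.22 in adipose tissue, -0.03 ± 0.44 in muscle, -0.26 ± 0.59 in hippocampus and 0.13 ± 0.27 in hypothalamus. Adjusted p-values from limma were 0.23 or more in each. ENSRNOT00000117518 had log2 fold changes of 0.59 ± 0.30 (SE) in lung, -0.51 ± 0.38 in adipose tissue and -1.12 ± 0.48 in muscle, with limma adjusted p-values of 0.66, 0.998 and 1.00.

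In liver, 2 members had groups that did not overlap, both lower in acrolein rats, where 2.09% of all tested rows had such groups in either direction. ENSRNOT00000026470 read 8.67, 5.67, 6.86, 5.63 and 10.7 CPM in the 5 air livers and 3.50 to 5.14 CPM after acrolein (6 livers, median 4.08). The highest acrolein liver thus stood close below the lowest air liver. The log2 fold change was -0.81 ± 0.21 (SE), with a limma adjusted p of 0.12. It was called lower by edgeR, at an adjusted p of 0.0891, and by DESeq2. ENSRNOT00000116299 read 15.6, 18.2, 14.6, 16.6 and 18.6 CPM in air livers and 3.73 (replicate 14) to 13.1 CPM in acrolein livers, with a median of 10.4. Here acrolein replicate 14 was far below the rest, and the log2 fold change of -0.87 ± 0.26 (SE, limma adjusted p of 0.133) was -0.63 without it.

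Both transcripts had been raised in the nose, by 1.78 and 3.13 times. Over the liver table, edgeR called 287 rows (1.53%), 1 of them a member, and DESeq2 called 1693 of 12543 rows with an adjusted p (13.5%), among them 9 members lower and 1 higher. The members called by DESeq2 made up 12.5% of the 80 with an adjusted p, a share close to that background. Air livers 1 and 5 carried rows restricted to other tissues, muscle rows at a median of 0.538% of the air muscle level in replicate 1 and lung rows at 1.57% of the air lung level in replicate 5, against at most 0.0465% and 0.429% in any other liver. Air livers 1 and 2 alone have labels with a capital letter, a mark whose meaning is not stated. Without air replicates 1, 2 and 5 limma called 0 members lower and 1 higher. The count over all rows for that choice is not given here, so these counts cannot be set against a background. The median log2 fold change of the members was then -0.17. Without air replicate 5 alone limma called 5 members lower, among 1740 rows called.

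In adipose tissue, 2 members had groups that did not overlap, both higher in acrolein rats, against 0.966% of all tested rows in either direction. ENSRNOT00000088508 read 51.6, 55.6, 50.8, 41.0 and 27.2 CPM in the 5 air samples and 96.3, 102, 82.7 and 68.3 CPM in the 4 acrolein samples, so each acrolein sample was above each air sample. The log2 fold change was 0.98 ± 0.21 (SE), with a limma adjusted p of 0.998. ENSRNOT00000108422 read 44.7, 66.5, 58.5, 47.9 and 25.2 CPM in air and 104.8, 102, 70.0 and 75.4 CPM in acrolein samples, with the lowest acrolein value close above the highest air value. The log2 fold change was 0.92 ± 0.24 (SE), again with an adjusted p of 0.998 by limma.

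Both went against the lower median of the members in this tissue. In the nose they were among the weakest members, with ratios of 1.57 and 1.501, and ENSRNOT00000108422 had the ratio closest to the limit. ENSRNOT00000088508 had positive log2 fold changes in each of the other tissues as well, 0.52 ± 0.21 (SE) in lung, 0.75 ± 0.30 in liver, 0.31 ± 0.31 in adrenal, 0.90 ± 0.49 in muscle, 0.59 ± 0.30 in hippocampus and 0.75 ± 0.36 in hypothalamus, none of them called. Adipose acrolein replicate 10 carried lung-restricted rows at a median of 6.95% of the air lung level, against at most 0.709% in the other adipose libraries. Without that library the median log2 fold change of the members in adipose tissue was -0.27. The log2 fold changes without any 1 sample ran from 0.87 to 1.09 for ENSRNOT00000088508 and from 0.76 to 1.05 for ENSRNOT00000108422.

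**Figure D5:**
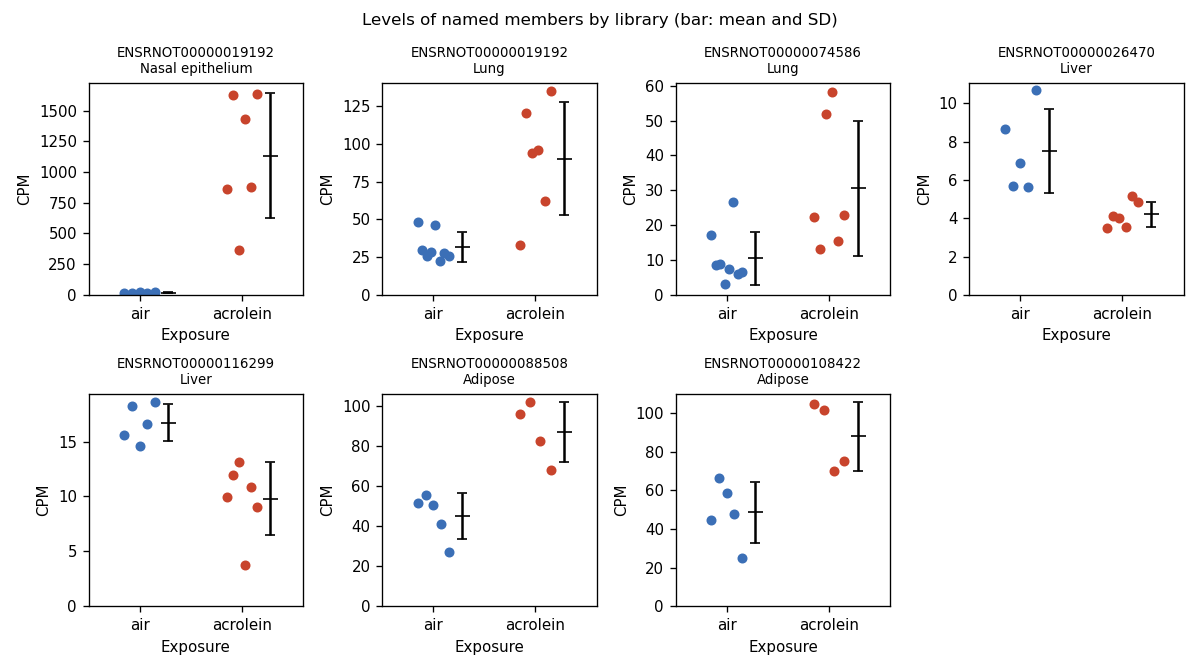
Level in CPM (vertical axes, each from 0) of 6 transcripts in the air (blue) and acrolein (red) libraries of the tissues described, with mean and SD as bars. The nasal groups of ENSRNOT00000019192 are apart by a wide gap. Its lung groups overlap, with acrolein replicate 9 (33.2 CPM) inside the air range. The 2 liver members are lower and the 2 adipose members higher in acrolein samples without overlap.

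In the remaining tissues almost no member had groups apart. Adrenal, hippocampus and hypothalamus had 0 such members, against 1.13%, 0.1% and 0.0703% of all tested rows. Muscle had 1, ENSRNOT00000031678, against 0.0729% of rows. It rested on few reads, with 3, 4, 3, 4, 3 and 8 reads in the air muscles and 0 to 2 in the acrolein muscles, so no fold is given. Its mean in muscle was under 2 CPM, and in the nose it had gone from 0.945 ± 0.236 CPM (SD, n = 5) to 3.31 ± 1.08 CPM (SD, n = 6).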

How the data were processed

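Each tissue table held signal values that the authors deposited as read counts divided by DESeq2 size factors, per the labels and the study's methods (Partek, R 4.1.3, build rn7). Dividing each library by its smallest non-zero value gave whole reads for 100% of values (tolerance 0.01 reads), which supplied the depths. Rows above 0 in 2 or more samples were tested within each tissue with limma 3.58.1 (trend, Benjamini-Hochberg adjustment) on log2(normalised count + 1). edgeR 4.0.16 and DESeq2 1.42.0 on the recovered reads were alternatives. The limma, edgeR and DESeq2 fits were tested on simulated lung and liver counts, with known changes in well-covered rows and the same spread for all rows. The member rule, the library medians and the comparisons between tissues were not tested in that way. Other alternatives were other pseudocounts (0.1 and 10), other filters on low rows, equal totals, other member limits and each sample left out. Levels are in CPM and folds are on the log2(value + 1) scale, which understates low rows. Identifiers were named by rule: steepest nasal ratios and groups without overlap, with at most 2 per direction and tissue. The lung members called by edgeR or DESeq2 and the muscle member were added after their values were seen. Members and rules were chosen with earlier results of these data known. Gene and marker lists could not be applied without symbols.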

Additional observations from a re-analysis of the deposited data

Results flagged for a closer look

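Among 34 groups of 4 to 10 values examined by Dixon's criterion, 1 held a value far from the rest, where chance gives about 1 in 20. ENSRNOT00000031678 in muscle read 0.53 CPM in air replicate 8, from 8 reads, against 0.132 to 0.174 CPM in the other air muscles.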

How the results depend on the processing

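No paired analysis was possible because air samples carry the numbers 1 to 8 and acrolein samples 9 to 16, so the groups compared share no number. Over the 7 tissues, the members called higher, those called lower and their median log2 fold change were recomputed under each alternative. Of 459 values, 444 kept their direction and their side of the threshold or stayed within the spread between libraries, 11 counts rose and 4 medians changed sign. Both counts of called members were 0 in each tissue in the main fit and could only stay at 0 or rise. The 444 are therefore no measure of stability. In lung, edgeR called 1 member higher and DESeq2 called 2, and 0 to 1 were called with a sample left out (1 without acrolein replicate 9). Over all lung rows, edgeR called 0.0299%, DESeq2 0.569% of those with an adjusted p, and limma 1 to 8 rows with a sample left out. In liver, 1 member was called lower with a filter at a mean of 10 normalised counts, for which the count over all rows is not given here. Another setting, edgeR, also called 1 lower. Of all liver rows, edgeR called 1.53%. DESeq2 called 9 members lower and 1 higher there, 12.5% of members with an adjusted p against 13.5% of all such rows. With 1 liver left out, 0 to 5 members were called lower (5 without air replicate 5 and 5 without air replicate 7) and 0 to 1 higher. Over all rows, limma called 13 to 1740 with 1 liver left out. Without air livers 1, 2 and 5, a choice made after seeing the data, 1 was called higher, again without a count over all rows. The cause of these differences was not tested.

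In adrenal the median of the members changed sign when each library was rescaled to the same total (-0.10, where that of all rows was -0.15), and it ran from -0.041 (without acrolein replicate 11) to 0.14 with a sample left out. In hypothalamus it ran from -0.035 (without acrolein replicate 11) to 0.16. In the other tissues the median kept its sign in each alternative, and with a sample left out it ran from 0.06 to 0.32 in lung (the ends being without acrolein replicates 13 and 12), -0.28 to -0.20 in liver, -0.31 to -0.10 (without air replicate 7) in adipose tissue, -0.37 (without air replicate 4) to -0.17 in muscle and 0.14 (without air replicate 8) to 0.31 in hippocampus. With the 2 adipose libraries numbered 8 as separate samples it was -0.07. The number of members itself ran from 118 to 248 with a nasal sample left out, and it exceeded 1.5 times 119 without air replicate 4 (248), air replicate 8 (189), acrolein replicate 11 (226) or acrolein replicate 14 (180). Of the 119 members, 111 to 119 were still chosen with any 1 nasal sample left out. Leaving out a sample only loosens the limit on overlap, so that number is no measure of stability. With normalised counts in place of CPM, 119 rows were chosen, 96 of them the same.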
